A study of Mus musculus with 37 samples.

Results

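T cell receptor beta (TRB) repertoires of lymph nodes at the time label d105 were compared between mice labelled PLX+PTX+aPD-1_R (6 libraries, called R here) and mice labelled PLX+PTX+aPD-1_NR (4 libraries, called NR). These 10 libraries of the 37 in the series were chosen by treatment and time label, and every clonotype in their tables was used, with 1 library per mouse. The labels do not spell out R and NR, and replicate numbers follow the order of deposition. All 10 mice were MMTV-PyMT females, in which the promoter of a mouse mammary tumor virus drives a polyoma middle T oncogene in the mammary epithelium. Both groups had received the same 3 agents, and their treatment labels differ in the suffix alone. The numbers in the sample descriptions differ as well, since some R mice have numbers below those of all NR mice. Group and description number thus overlap in part, and a link of receptor use with the number was not tested. PLX3397 (pexidartinib), an inhibitor of the macrophage receptor CSF1R, was fed at 40 mg/kg per day from an age of 80 days. PTX followed at 10 mg/kg every 5 days from 85 days. The antibody against PD-1 (aPD-1, an inhibitory receptor of T cells) began at 87 days with 1.0 mg and went on at 0.5 mg every 5 days. The comparison asks whether receptors were used differently in R and NR mice under one regimen. Lymph node identity could not be checked against marker genes, since the assay reads rearranged TRB genes and nothing else.

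A TRB gene is assembled in the thymus from a variable (TRBV), a diversity (TRBD) and a joining (TRBJ) segment. Bases are trimmed from the segment ends and others are added between them, and the resulting junction encodes CDR3, the loop that faces the peptide held by an MHC molecule. The TRBV segment also encodes the loops that rest on the MHC molecule itself. Superantigens of mouse mammary tumor viruses bind outside CDR3, to the side of the TRBV domain, and TRBV19, TRBV26 and TRBV29 encode domains known as their targets. A lymph node holds mainly naive T cells, each with a receptor that few other cells share.

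The 6 R libraries held 1503902 to 2449606 reads and 45911 to 87090 clonotypes, and the 4 NR libraries held 1455363 to 1775174 reads and 50657 to 78523 clonotypes. The median clonotype rested on 14 to 29 reads. Genomic DNA was amplified by PCR with no molecular tags, so that reads do not count molecules, and intervals and limits from 0 reads reflect the error of counting alone. No library was a copy of another, as any pair of libraries shared 2.09 to 4.14% of their nucleotide clonotypes. The FVB/N genome has a known deletion across TRBV segments, yet 9 of the deleted segments held 0.0270 to 0.647% of reads in R mice and 0.0558 to 0.360% in NR mice. R mouse 3 had the highest share, and where those reads came from was not tested. Leaving these segments out gave no call and ended none. Nothing in the labels says how mice were housed or handled apart. P-values thus measure the spread between mice, of these 10 or, where said, of all 23 libraries of d105.

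The receptors found in all 10 mice show how the sequences are built. In the sequences printed here, each 5′ to 3′ and on mouse chromosome 6, capitals mark the bases between the assigned ends of TRBV and TRBJ, which hold any TRBD bases and any added bases. The 5 with the most reads were the following.
TRBV13-2 TRBJ2-5 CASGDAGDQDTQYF: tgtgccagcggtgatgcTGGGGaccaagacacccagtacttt
TRBV4 TRBJ2-7 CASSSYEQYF: tgtgccagcagctcctatgagcagtacttc
TRBV5 TRBJ2-7 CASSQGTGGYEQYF: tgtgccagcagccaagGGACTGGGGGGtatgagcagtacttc
TRBV19 TRBJ2-7 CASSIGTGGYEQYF: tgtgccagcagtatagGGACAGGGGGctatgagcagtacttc
TRBV1 TRBJ2-5 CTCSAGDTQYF: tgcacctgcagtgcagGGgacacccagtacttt

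No clonotype among these 5 was called between the groups in edgeR (adjusted p 1.00 each, over all clonotypes tested). That test recovered no planted change in simulated counts, so this does not show that the 5 were alike. TRBV4 TRBJ2-7 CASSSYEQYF, whose TRBV and TRBJ ends meet with no base between them, had 604, 668, 1400, 1223, 219 and 780 reads in R mice 1 to 6, against 865, 792, 613 and 966 in NR mice 1 to 4. The form printed here was found in all 10 mice and held 67.9% of the reads of this receptor. TRBV1 TRBJ2-5 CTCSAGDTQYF averaged 327 ± 135 CPM (reads scaled to a common depth) in R mice and 158 ± 94.7 in NR mice (SD, n = 6 and 4), and the groups overlapped. TRBV13-2 TRBJ2-5 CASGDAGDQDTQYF belongs to the segments that FVB/N mice lack. The form printed was found in all 10 mice and held 99.2% of its reads, with 141 reads in R mouse 1, 12224 in R mouse 3 and 721 to 3941 in NR mice.

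The V-J pairs, each the reads of 1 TRBV joined to 1 TRBJ, gave no call between R and NR mice. Of 140 pairs tested with edgeR over all 23 libraries of d105, 0 passed an adjusted p of 0.05 (0%), and DESeq2 and limma also called 0. That fit also held the other d105 libraries, 6 PLX+PTX and 2 PTX mice with the MMTV-PyMT transgene and 5 FVBN mice (WTNT). These libraries served to estimate the spread, and they also entered the filter on reads and the scaling between libraries. In simulated counts with these means edgeR recovered 1 of 20 pairs changed 1.2-fold and 12 of 20 changed 1.5-fold. A count of 0 thus does not show that pairs were alike. At an unadjusted p under 0.05 there were 18 pairs (12.9%), 8 higher and 10 lower in R, and the 10 lower pairs made up 7.14% of all pairs. The groups did not overlap in 3 pairs (2.14%). Of the 140 pairs, 73 had the higher estimate in R and 67 the lower, with a median log2 difference of 0.01. The median size of a difference was 0.12 on the log2 scale, beside a median standard error of 0.13, and 92 pairs lay under 0.2. Among the 103 pairs with at least 0.1% of reads, the median coefficient of variation between mice was 11.6% in R and 11.3% in NR. The 10 pairs with the most reads held 31.0 to 33.1% of reads in R mice and 30.4 to 33.6% in NR mice.

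Pairs with TRBV19, which encodes a superantigen-binding domain, were lower in R by estimate with each TRBJ tested. All 11 tested pairs had a negative log2 difference, from -0.50 with TRBJ1-3 to -0.17 with TRBJ2-5, with a median of -0.29 beside 0.01 over all pairs. Of these, 8 had an unadjusted p under 0.05 and 0 passed after adjustment. TRBV19 TRBJ2-1 held 0.689, 0.663, 0.766, 0.771, 0.785 and 0.995% of reads in R mice 1 to 6, against 0.908, 0.956, 1.04 and 0.967% in NR mice 1 to 4. R mouse 6 alone lay among the NR mice. The log2 difference was -0.33 ± 0.11 (SE; 95% interval -0.55 to -0.12; edgeR adjusted p 0.193). TRBV19 TRBJ2-7, the most used of them, held 2.62, 2.48, 3.13, 2.90, 3.22 and 4.06% in R mice and 2.99, 4.24, 3.89 and 4.201% in NR mice. Here R mouse 6 was again high and NR mouse 1 low, and the log2 difference was -0.34 ± 0.13 (adjusted p 0.296). NR mice 2 to 4 and R mouse 6, which have the highest description numbers of these mice, held 3.89 to 4.24%. The other mice, including NR mouse 1, have lower numbers and held 2.48 to 3.22%. Number and group overlap in part, and a link of the share with the number was not tested. TRBV19 TRBJ1-6 (-0.28 ± 0.10) and TRBV19 TRBJ1-1 (-0.35 ± 0.12) had the same adjusted p of 0.193. Without R mouse 6, edgeR called TRBV19 TRBJ2-1 at -0.43, TRBJ2-7 at -0.45, TRBJ1-6 at -0.35 and TRBJ1-1 at -0.43 (adjusted p 0.0207 to 0.0321). The same fit called TRBV5 TRBJ2-1 at 0.31, so that these calls turn on 1 library. Without the 2 R mice whose description numbers lie below those of all NR mice (R mice 1 and 2), the log2 difference was -0.21 for TRBV19 TRBJ2-7 and -0.17 for TRBV19 TRBJ1-6 (adjusted p 0.722 each). With clonotypes counted in place of reads, TRBV19 TRBJ2-7 stood at -0.20 (adjusted p 0.366).

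**Figure D1:**
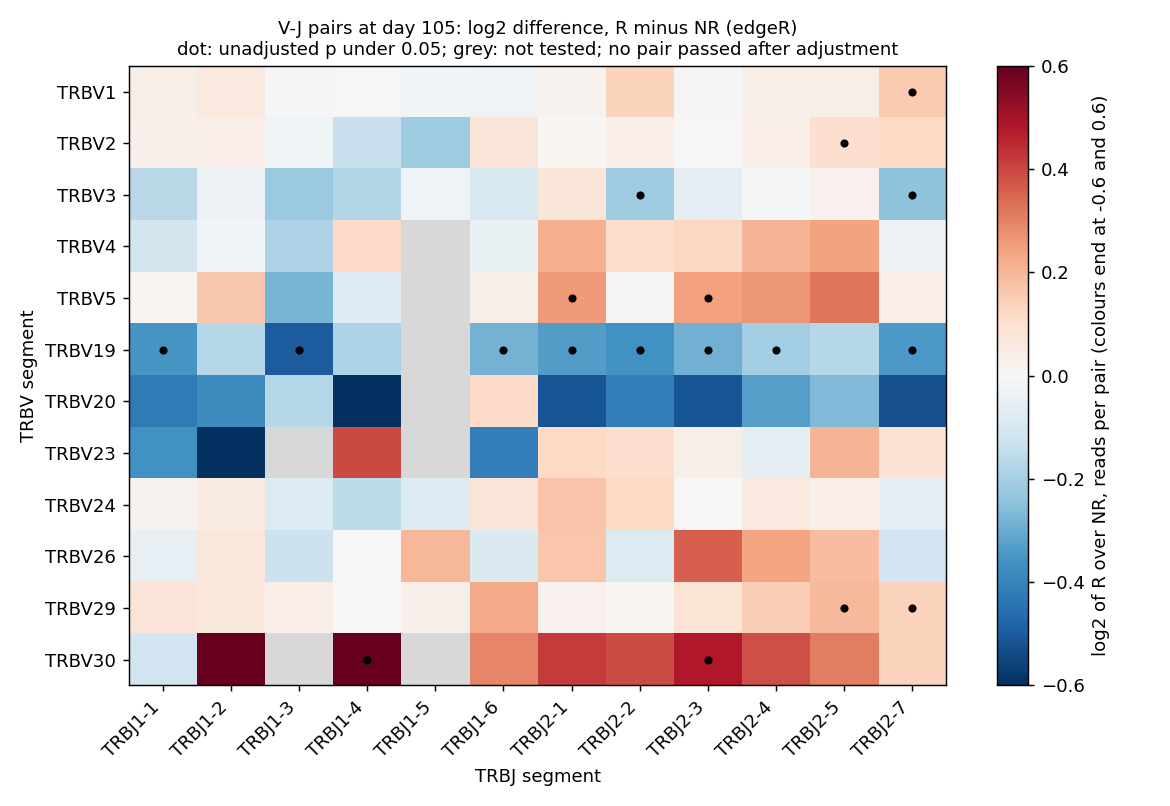
Log2 difference in reads per V-J pair between R and NR mice at d105 (edgeR), with TRBV segments in rows and TRBJ segments in columns. Red means higher in R, blue lower in R, grey not tested, and dots mark the 18 pairs with an unadjusted p under 0.05, 8 of which lie in the row of TRBV19, while 0 pairs passed after adjustment.

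Other TRBV segments also leaned one way across their TRBJ partners. TRBV20 pairs were lower in R by estimate in 10 of 11 (median -0.41), but their spread between mice was wide and 0 had an unadjusted p under 0.05. TRBV20 TRBJ2-7, for example, held 0.188% ± 0.0847 of reads in R mice and 0.266% ± 0.0396 in NR mice (SD, n = 6 and 4). TRBV3 pairs were lower in 10 of 12 (median -0.08), pairs of TRBV29, another superantigen-binding domain, higher in 11 of 12 (0.07) and TRBV30 pairs higher in 9 of 10 (0.39), with 2 pairs each at an unadjusted p under 0.05. TRBV26, which also encodes a superantigen-binding domain, was split evenly with 6 pairs in each direction. Pairs of 1 TRBV share its total, so they are not separate tests of it. Among the TRBJ segments, TRBJ2-1 and TRBJ2-5 were each higher in R in 10 of 13 pairs, and TRBJ1-3 was lower in 9 of 10.

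The 5 pairs with the smallest p among those higher in R were TRBV29 TRBJ2-5, TRBV5 TRBJ2-1, TRBV5 TRBJ2-3, TRBV2 TRBJ2-5 and TRBV29 TRBJ2-7. TRBV29 TRBJ2-5 held 1.61, 1.67, 1.61, 1.62, 1.54 and 1.45% of reads in R mice, against 1.41, 1.23, 1.44 and 1.38% in NR mice. The lowest R mouse lay just above the highest NR mouse, and the log2 difference was 0.19 ± 0.06 (95% interval 0.07 to 0.31; edgeR adjusted p 0.193). With clonotypes counted in place of reads it was 0.08 for TRBV29 TRBJ2-5 (adjusted p 0.618). TRBV2 TRBJ2-5 varied little within a group, with 2.55 to 2.67% in R mice and 2.32 to 2.51% in NR mice. Its groups did not overlap either, at a log2 difference of 0.10 ± 0.04 (adjusted p 0.304), or 0.03 by clonotypes (adjusted p 0.892). TRBV29 TRBJ2-7 was the other pair without overlap, with 2.603 to 2.93% in R mice and 2.31 to 2.58% in NR mice (0.14 ± 0.06, adjusted p 0.304). TRBV5 TRBJ2-1 averaged 0.560% ± 0.0749 in R mice and 0.463% ± 0.0609 in NR mice, and TRBV5 TRBJ2-3 0.384% ± 0.0446 and 0.319% ± 0.0478. Of the lower pairs, TRBV3 TRBJ2-7 is the most used pair of the repertoire, with 3.67 to 4.78% in R mice and 4.56 to 5.70% in NR mice (-0.24 ± 0.08, adjusted p 0.193). For TRBV3 TRBJ2-7 the log2 difference was -0.16 without NR mouse 2 (adjusted p 0.655) and -0.08 by clonotypes (adjusted p 0.495).

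**Figure D2:**
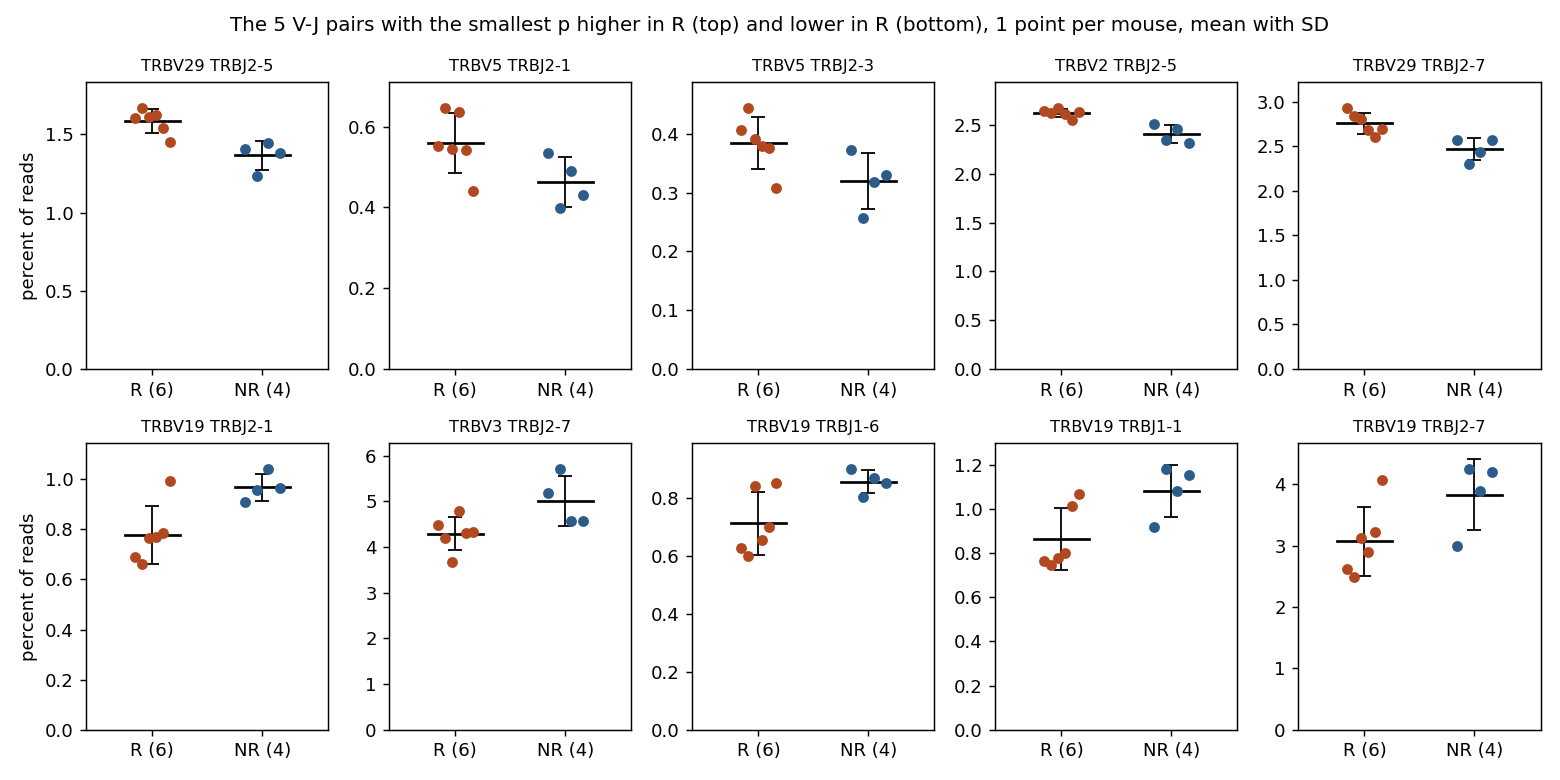
Percent of reads in each mouse for the 5 V-J pairs with the smallest p higher in R (top) and lower in R (bottom), with R mice left of NR mice and bars for the mean and SD. R mouse 6, at 0.995% for TRBV19 TRBJ2-1, is the highest R mouse of that pair and lies among the NR mice.

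To see pairing beyond single segments, each pair was set against the product of the shares of its TRBV and its TRBJ in the same mouse, a measure chosen after the tables had been seen. On this scale a log2 value of 0 means that the pair is as common as its segments alone would give. Within every mouse the pairs departed widely from that product. Over all 10 mice TRBV26 TRBJ1-2 averaged 1.54 (1.44 to 1.79) and TRBV3 TRBJ1-3 1.14 (0.99 to 1.34), whereas TRBV5 TRBJ2-5 averaged -2.09 (-2.56 to -1.61) and TRBV26 TRBJ2-5 averaged -1.86 (-2.13 to -1.57). These levels are of reads, before the factor by which the authors rescale each pair, so they are not levels of pairing alone. The segment totals are sums over pairs with different factors, so the differences between mice depend on the use of reads as well.

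The test between R and NR mice gave no call on this scale. With limma over all 23 libraries of d105, 0 of 140 pairs passed (0%) and 11 had an unadjusted p under 0.05 (7.86%). Dividing by segment totals centres the pairs of a segment, so counts of pairs by direction carry no information on this scale. TRBV20 TRBJ1-6 differed most by p. It stood at -0.97, -0.75, -0.60, -0.79, -0.99 and -1.10 in R mice, against -1.26, -1.61, -1.36 and -1.14 in NR mice. The groups did not overlap, and the difference was 0.48 ± 0.12 (limma adjusted p 0.118). This pair is rare, at 0.0178% ± 0.0088 of reads in R mice and 0.0162% ± 0.0048 in NR mice. TRBV24 TRBJ2-2, with -0.07 to 0.05 in R mice and -0.23 to -0.09 in NR mice, also showed no overlap (0.12 ± 0.04, adjusted p 0.386). Other pairs named by p were TRBV29 TRBJ2-7 (0.10), TRBV4 TRBJ2-2 (0.12) and TRBV24 TRBJ2-1 (0.10) above their segments, and TRBV29 TRBJ2-1 (-0.14), TRBV24 TRBJ2-5 (-0.08), TRBV24 TRBJ1-4 (-0.14), TRBV20 TRBJ2-1 (-0.16) and TRBV1 TRBJ2-5 (-0.09) below. Their groups overlapped in every case. Without NR mouse 1, TRBV24 TRBJ2-1 stood at 0.04 and TRBV24 TRBJ1-4 at -0.08.

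Splitting each pair by CDR3 length gave 881 classes. In the edgeR fit over all 23 libraries of d105 none was called (0 of 881, 0%), and 56 had an unadjusted p under 0.05 (6.36%). In simulated counts with these means edgeR recovered 61 of 200 classes changed 1.5-fold and 113 of 200 changed 2-fold. Of all classes 433 were higher and 448 lower in R by estimate. TRBV19 again stood lower across lengths, in 73 of its 84 classes, with a median of -0.26 beside -0.01 over all classes and with 20 of the 56 classes. TRBV19 TRBJ1-3 with 15 residues held 0.0378, 0.0256, 0.0348, 0.0378, 0.0607 and 0.0539% of reads in R mice, against 0.0608, 0.0850, 0.0624 and 0.0642% in NR mice. All NR mice lay above all R mice (-0.72 ± 0.23, adjusted p 0.659), by a narrow margin between R mouse 5 and NR mouse 1. TRBV3 TRBJ2-7 with 14 residues, the largest named class, averaged 1.24% ± 0.151 in R mice and 1.52% ± 0.168 in NR mice (-0.31 ± 0.09, adjusted p 0.659). TRBV19 TRBJ2-1 with 14 residues (-0.41 ± 0.13), TRBV19 TRBJ2-7 with 15 (-0.53 ± 0.17) and TRBV19 TRBJ1-1 with 13 (-0.45 ± 0.16) were the other 3 lowest by p. In NR mouse 4, 1 clonotype held 24.2% of the reads of TRBV19 TRBJ2-7 with 15 residues, and without that mouse the log2 difference was -0.32 (adjusted p 0.782). By number of clonotypes it was -0.24 (adjusted p 0.584), that of TRBV19 TRBJ1-3 with 15 residues -0.37 (0.584) and that of TRBV3 TRBJ2-7 with 14 residues -0.13 (0.525).

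The class TRBV29 TRBJ2-3 with 18 residues was called by DESeq2 (log2 5.40, adjusted p 0.00393) and not by edgeR (5.30 ± 1.48, adjusted p 0.659). It had 38, 1, 176, 106, 140 and 77 reads in R mice, against 3, 0, 1 and 3 in NR mice. Apart from R mouse 2, every R mouse lay above every NR mouse. The class holds 1 to 4 clonotypes in an R mouse and 0 to 3 in an NR mouse, so its reads rest on a handful of receptors. Higher in R by estimate were also TRBV30 TRBJ2-3 with 13 residues (1.00 ± 0.30), TRBV1 TRBJ2-7 with 11 (0.44 ± 0.14), TRBV2 TRBJ2-5 with 16 (0.36 ± 0.12) and TRBV4 TRBJ2-2 with 12 (0.68 ± 0.23), with edgeR adjusted p of 0.659 to 0.668. In TRBV4 TRBJ2-2 with 12 residues the reads came from 21 to 41 clonotypes in R mice and 9 to 25 in NR mice.

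Mean CDR3 length did not pass the test. Weighted by normalised clone count, CDR3 averaged 13.79 ± 0.018 residues in R mice and 13.77 ± 0.020 in NR mice (SD, n = 6 and 4; 2-sided exact permutation p 0.157). Every exact test of 6 against 4 mice draws on 210 regroupings and can go no lower than 0.0048. The most common length, 14 residues, held 30.7 to 31.7% of normalised counts in R mice and 30.6 to 31.2% in NR mice. Of 8 lengths from 10 to 17 residues tested, 0 passed after adjustment and 1 had an unadjusted p under 0.05. Receptors of 11 residues held 4.28, 4.33, 4.38, 4.32, 4.13 and 4.14% in R mice, against 4.66, 4.56, 4.24 and 4.71% in NR mice. NR mouse 3 lay among the R mice (exact permutation p 0.0333, adjusted 0.267). By raw reads the 11-residue share was 4.14 to 4.64% in R mice and 4.30 to 4.76% in NR mice, where 3 of the 4 NR mice lay in the R range. The other 7 lengths had adjusted p of 0.686 to 0.957 (exact permutation tests).

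Lengths were spread slightly less widely in R mice. The SD of CDR3 length within a mouse, a measure added after the tables had been seen, was 1.387, 1.388, 1.389, 1.394, 1.374 and 1.407 residues in R mice, against 1.402, 1.403, 1.400 and 1.423 in NR mice. R mouse 6 alone lay among the NR mice. The means were 1.390 ± 0.0106 and 1.407 ± 0.0109, a difference of -0.017 ± 0.0070 residues (SE; exact permutation p 0.0381, a single test without adjustment). Without any 1 of R mice 1, 2 and 3 or NR mice 1, 2 and 4 the exact permutation p was 0.0635 to 0.119. The difference shrank to -0.00174 residues with raw reads as weights and to -0.000113 with each clonotype counted once. With each V-J pair held at the mean of its 10 shares in every mouse, called common V-J shares here, it was -0.0111 (exact permutation p 0.081). At those shares the difference in mean length turned to -0.00665 residues (exact permutation p 0.738). The 11-residue share was then 4.31% in R mice and 4.44% in NR mice (exact permutation p 0.405).

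**Figure D3:**
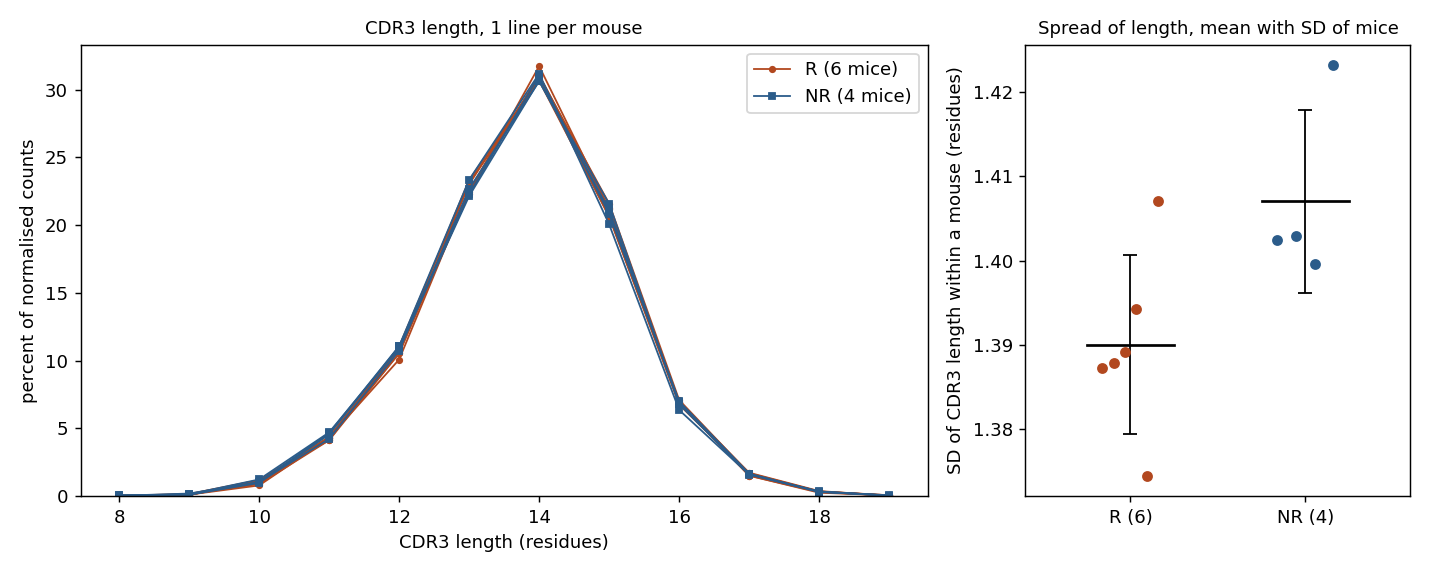
Left, percent of normalised counts at each CDR3 length in residues, 1 line per mouse, R in orange and NR in blue; right, the SD of CDR3 length within each mouse, with the group mean and SD. The lines of both groups lie on each other around the peak at 14 residues, and the R mean of 1.390 lies below the NR mean of 1.407 with 1 R mouse inside the NR range.

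The composition of the CDR3 core, taken after 4 residues were removed at each end, was led in both groups by glycine, with 21.3% ± 0.175 of core residues in R mice and 21.4% ± 0.157 in NR mice. Of the 20 residues 0 passed after adjustment, and glutamine and serine had an unadjusted p under 0.05. Glutamine made up 9.51, 10.01, 9.56, 9.51, 9.46 and 9.23% in R mice, against 9.27, 8.87, 9.24 and 8.96% in NR mice. R mouse 6 was the 1 R mouse inside the NR range (means 9.55% ± 0.252 and 9.08% ± 0.201; exact permutation p 0.0190, adjusted 0.381). Serine averaged 7.03% ± 0.0963 in R mice and 7.19% ± 0.0746 in NR mice (exact permutation p 0.0381, adjusted 0.381). By raw reads serine made up 7.66 to 7.93% in R mice and 7.73 to 7.93% in NR mice, and glutamine 7.45 to 7.85% and 7.27 to 7.42%. Aspartate averaged 9.06% ± 0.193 and 8.74% ± 0.298 (exact permutation p 0.0667, adjusted 0.444). The other 17 residues had adjusted p of 0.690 to 0.943 (exact permutation tests).

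The gaps in these residues were smaller once V-J usage was made common. Glutamine and aspartate both stand in the stretch of CDR3 that TRBJ2-5 encodes. At common V-J shares glutamine averaged 9.39% in R mice and 9.32% in NR mice (exact permutation p 0.400), aspartate 8.94% and 8.92% (p 0.605) and serine 7.09% and 7.09% (p 0.938). Glutamate, at 3.86% in R mice and 3.94% in NR mice, was then the 1 residue with an unadjusted p under 0.05 (exact permutation p 0.0286, adjusted 0.571).

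Of 5 properties of the loop, 0 passed and 2 had an unadjusted p under 0.05. Mean hydropathy of the core on the Kyte-Doolittle scale, where lower means more water-loving, was -1.135, -1.164, -1.134, -1.138, -1.133 and -1.113 in R mice, against -1.132, -1.088, -1.114 and -1.101 in NR mice. The means were -1.136 ± 0.0164 and -1.109 ± 0.0187 (exact permutation p 0.0429, adjusted 0.107), and at common V-J shares -1.127 and -1.122 (exact permutation p 0.186). The N-glycosylation motif, asparagine followed by any residue but proline and then serine or threonine, is the site where a sugar chain can be attached. It was carried by 0.184, 0.164, 0.153, 0.158, 0.132 and 0.219% of normalised counts in R mice, against 0.249, 0.194, 0.224 and 0.232% in NR mice. R mouse 6 and NR mouse 2 made the groups overlap (means 0.168% ± 0.0299 and 0.225% ± 0.0228; exact permutation p 0.0190, adjusted 0.0952).

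With V-J usage made common the motif stood at 0.173% in R mice and 0.219% in NR mice (exact permutation p 0.0476, adjusted 0.238). Both hydropathy and the motif passed among clonotypes with at least 10 reads (adjusted p 0.0476 each) and without R mouse 6 (0.0198 each). By raw reads neither passed (exact permutation adjusted p 0.202 each). The hydropathy difference was -0.0276 as measured and -0.00210 with each clonotype counted once (adjusted p 0.827). For hydropathy the adjusted p was 0.357 without NR mouse 2 and 0.214 without R mice 1 and 2. Net charge of the core averaged -0.371 ± 0.0159 in R mice and -0.352 ± 0.0387 in NR mice (exact permutation p 0.333). Hydrophobic residues at both positions 6 and 7, a feature linked to self-reactive receptors, were carried by 2.61% ± 0.125 and 2.70% ± 0.0991 (p 0.233). An inner cysteine was carried by 0.115% ± 0.0204 and 0.124% ± 0.0225 (p 0.510).

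**Figure D4:**
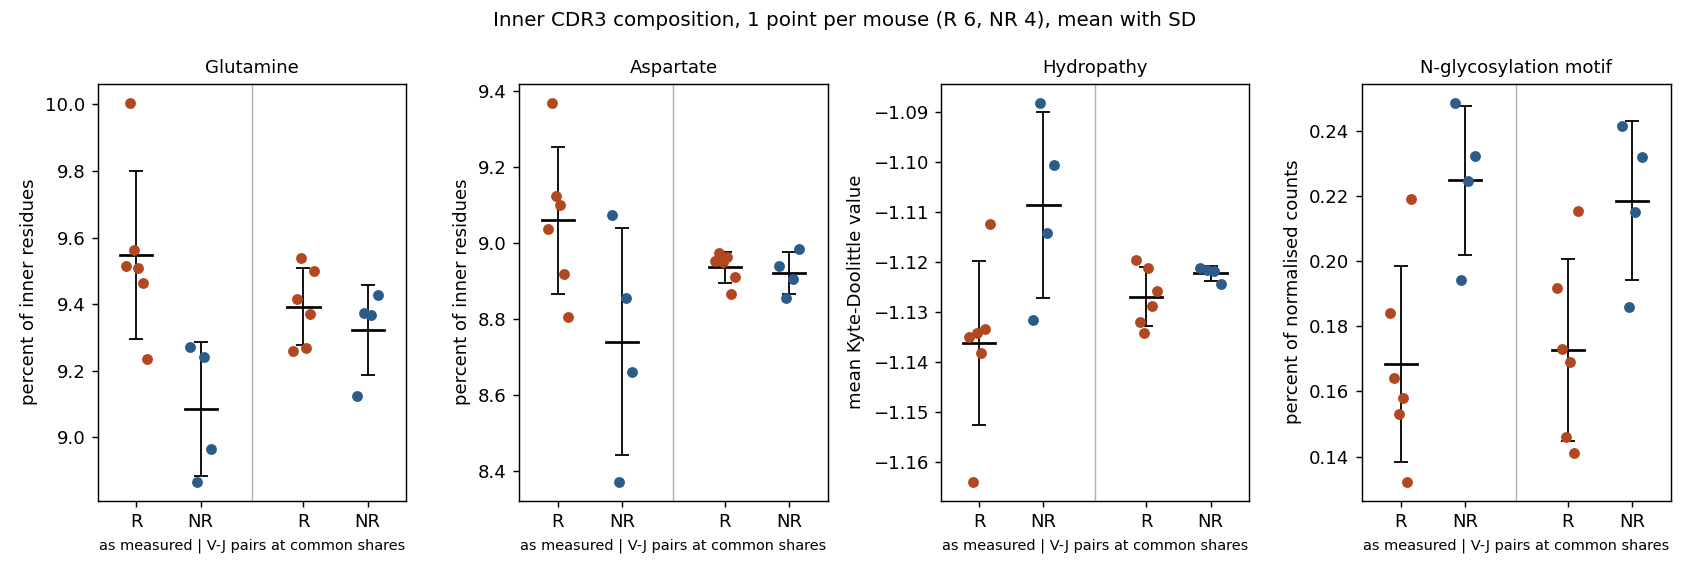
Glutamine and aspartate as percent of core residues, mean Kyte-Doolittle hydropathy and percent of normalised counts with an N-glycosylation motif, 1 point per mouse with the mean and SD, R left of NR, as measured (left of the grey line) and with V-J pairs at common shares (right of it). The gap in glutamine narrows from 9.55% and 9.08% to 9.39% and 9.32%, while that in the motif is 0.168% and 0.225% as measured and 0.173% and 0.219% at common shares; the axes do not start at 0.

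Residues were also placed by position in CDR3s of 14 residues, counted from 1 at the first cysteine. Of 77 residues at positions 5 to 10, 0 passed (0%) in limma over all 23 libraries of d105. At an unadjusted p under 0.05 there were 8 (10.4%), and 4 at common V-J shares. Isoleucine at position 5 is a mark of TRBV19, which supplied 80.0% of its counts. It averaged 1.79% in R mice, with 1.43 to 2.31%, and 2.25% in NR mice, with 1.67 to 2.59% (log2 -0.31 ± 0.13, adjusted p 0.332), and at common V-J shares the log2 difference was -0.04 ± 0.06. Aspartate at position 10, 93.8% of it from TRBJ2-5, held 24.2 to 28.2% in R mice and 21.1 to 26.8% in NR mice (0.14 ± 0.06, and 0.00 ± 0.01 at common shares). Glutamine at position 9, 67.8% of it from TRBJ2-5, moved likewise, at 0.14 ± 0.06 and 0.03 ± 0.02, and glutamine at position 5, 57.4% of it from TRBV5, at 0.10 ± 0.04 and -0.01 ± 0.02. Threonine at position 10 comes almost wholly from TRBJ1-1 (97.1%), with a log2 difference of -0.14 ± 0.06 as measured. Glycine at position 10 (73.9% from TRBJ2-2) stood at -0.10 ± 0.06.

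Other named residues kept most of their difference at common V-J shares. Arginine at position 8 held 5.20, 5.11, 5.10, 4.88, 4.77 and 4.69% in R mice, against 4.23, 4.62, 4.95 and 4.57% in NR mice. NR mouse 3 lay among the R mice, with a log2 difference of 0.11 ± 0.05 as measured (adjusted p 0.332) and 0.12 ± 0.04 at common V-J shares. Histidine at position 7 stood at 0.16 ± 0.07 and 0.17 ± 0.07, alanine at position 7 at -0.14 ± 0.06 and -0.15 ± 0.06, and aspartate at position 9 at -0.13 ± 0.08 and -0.10 ± 0.06. Arginine at position 8 had the other sign in CDR3s of 13 residues (-0.03), as did aspartate at position 9 (0.10). Over all 77 the median size of a difference was 0.04 as measured and 0.03 at common V-J shares. Without NR mouse 1, limma called glycine (-0.18) and aspartate (0.20) at position 10 and isoleucine at position 5 (-0.44), with adjusted p of 0.0312 to 0.0452.

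No junction measure passed the test. R mice had 3.34 ± 0.0253 bases between the assigned segments and NR mice 3.37 ± 0.0346 (exact permutation p 0.281). Of normalised counts 12.2% ± 0.259 in R mice and 12.3% ± 0.579 in NR mice had no such base (p 0.848), as in TRBV4 TRBJ2-7 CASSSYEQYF printed above. TRBV ends had lost 2.96 ± 0.0200 and 2.97 ± 0.0309 bases (p 0.748), and TRBJ ends 3.08 ± 0.0266 and 3.10 ± 0.0119 (p 0.171). TRBD2 lies downstream of the TRBJ1 segments in the locus, so a TRBD2 assigned beside a TRBJ1 is not a product of ordinary deletion joining. It made up 6.30% ± 0.298 of TRBJ1 receptors with a TRBD in R mice and 6.64% ± 0.192 in NR mice (p 0.0905, adjusted 0.686). No TRBD was assigned in 25.4% ± 0.297 of counts in R mice and 25.4% ± 0.616 in NR mice, and TRBD1 made up 48.3% ± 1.08 and 48.1% ± 0.487 of TRBJ2 receptors with a TRBD. The 8 junction measures were added after the tables had been seen, and 0 passed or had an unadjusted p under 0.05.

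Short residue motifs of the TRBD reading frames gave no call either. GTG, which either TRBD can encode, was carried by 5.87% ± 0.235 of normalised counts in R mice and 5.93% ± 0.366 in NR mice. Of the TRBD1 motifs, GQG stood at 2.79% ± 0.157 and 2.79% ± 0.243, and DRG at 2.44% ± 0.0828 and 2.46% ± 0.129. Of the TRBD2 motifs, GLG stood at 3.68% ± 0.154 and 3.67% ± 0.171, and DWG at 5.27% ± 0.268 and 5.13% ± 0.132. None of the 5 had an exact permutation p below 0.395 (adjusted 1.00 each).

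No measure of clone size passed. After each library was thinned to 1455363 reads, clonotypes of 0.001 to 0.01% each held most of the normalised counts, 68.2 to 75.1% in R mice and 70.8 to 77.4% in NR mice. Clonotypes of 0.01 to 0.1% held 8.98 to 22.4% and 8.61 to 21.1%, and those of at least 0.1% held 0 to 0.350% and 0 to 0.503%. In each of these classes the SD within a group was wider than the gap between the group means. The largest clonotypes that together held 50% of the counts numbered 8495 ± 2012 clonotypes in R mice and 9021 ± 2107 in NR mice (exact permutation p 0.7095). The Gini coefficient, 0 for equal clones and 1 for a single clone, was 0.568 ± 0.0114 and 0.567 ± 0.0231 (p 0.971). The 1000 largest clonotypes held 14.99% ± 2.18 and 14.6% ± 2.28 (p 0.771). Hill numbers, which count clonotypes with growing weight on the large ones, were 32197 ± 7932 and 33351 ± 7319 for order 1 and 18005 ± 3907 and 18511 ± 4825 for order 2. Of 11 measures 0 passed or had an unadjusted p under 0.05 (exact permutation tests, adjusted p 0.995 each).

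The largest clonotype of a mouse depended on the scale. By normalised count it held 0.0958 to 0.228% of the library in R mice and 0.0975 to 0.256% in NR mice. In 7 of the 10 mice it was a TRBV4 TRBJ2-7 receptor, and short ones recurred. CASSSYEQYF led in R mouse 6 and NR mouse 4, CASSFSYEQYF in R mouse 5, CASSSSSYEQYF in R mouse 4 and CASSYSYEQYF in NR mouse 2, and all but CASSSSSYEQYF (missing in 1 NR mouse) were found in every mouse. By reads, TRBV13-2 TRBJ2-5 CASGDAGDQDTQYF led in R mice 3 and 6 and in NR mouse 2, and other receptors led elsewhere. In R mice 2, 4 and 5 and in NR mice 1, 3 and 4 the leader by reads had at most 2 reads in any other mouse, and these 6 sequences follow, the last pair named by segments alone.
TRBV24 TRBJ2-7 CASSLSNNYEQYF: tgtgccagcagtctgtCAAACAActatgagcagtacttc
TRBV24 TRBJ2-3 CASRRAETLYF: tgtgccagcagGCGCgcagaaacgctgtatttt
TRBV30 TRBJ1-2 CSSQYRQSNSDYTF: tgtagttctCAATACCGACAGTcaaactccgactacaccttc
TRBV26 TRBJ1-2 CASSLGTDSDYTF: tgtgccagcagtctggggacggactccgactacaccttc
TRBV1 TRBJ2-5 of NR mouse 3: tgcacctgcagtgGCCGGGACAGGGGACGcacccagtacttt
TRBV19 TRBJ2-7 of NR mouse 4: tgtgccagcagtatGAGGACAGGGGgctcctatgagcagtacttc

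TRBV24 TRBJ2-7 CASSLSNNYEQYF had 2343 reads in R mouse 2, or 0.123% (95% Wilson interval 0.118 to 0.128), and 0 in the other 9 mice. TRBV24 TRBJ2-3 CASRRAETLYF had 3131 reads in R mouse 4, or 0.1598% (0.154 to 0.166), and at most 2 in another mouse. TRBV30 TRBJ1-2 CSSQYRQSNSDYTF had 3086 reads in R mouse 5, or 0.167% (0.161 to 0.173), against 4114 reads of TRBV26 TRBJ1-2 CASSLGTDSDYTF in NR mouse 1, or 0.232% (0.225 to 0.239). The TRBV1 TRBJ2-5 leader had 1070 reads in NR mouse 3, or 0.0701% (0.0660 to 0.0744), and the TRBV19 TRBJ2-7 leader 1857 in NR mouse 4, or 0.128% (0.122 to 0.134). Each of these leaders thus held well under 1% of its library. The authors' factors changed the order strongly: TRBV26 TRBJ2-3 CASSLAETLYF led R mouse 2 by normalised count at 0.153% on 91 reads, and ranked 936 by reads.

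**Figure D5:**
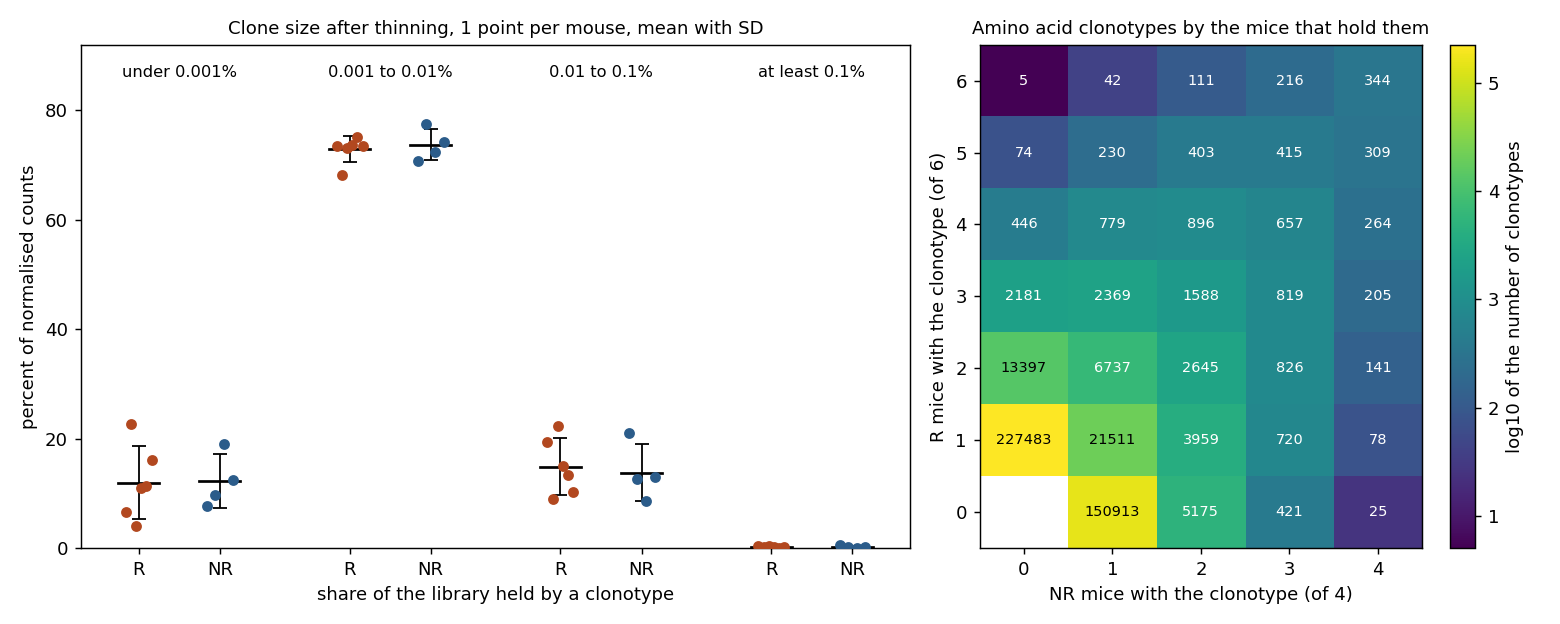
Left, percent of normalised counts held by clonotypes of 4 size classes after thinning, 1 point per mouse with the mean and SD, R left of NR; right, the number of amino acid clonotypes found in a given number of R mice (rows) and NR mice (columns), coloured on a log10 scale. The size classes overlap between the groups, and 344 clonotypes were found in all 10 mice, 5 in all R mice and no NR mouse, and 25 in all NR mice and no R mouse.

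Most receptors belonged to 1 mouse. Merged by TRBV, TRBJ and amino acid CDR3, the 10 mice held 446384 clonotypes, 84.8% of them in 1 mouse. Private clonotypes held 54.3% ± 0.907 of normalised counts in R mice and 54.7% ± 0.305 in NR mice (exact permutation p 0.395). Clonotypes found in 5 or more of the other 9 mice held 12.8% ± 0.670 and 12.8% ± 0.217 (p 0.857). Receptors written by 2 or more nucleotide forms in a mouse, counting any form with a read, held 16.1% ± 2.28 and 16.4% ± 1.59 (p 0.848). Whether such forms came from separate assembly or from errors of PCR or sequencing was not tested. Of 4 sharing measures 0 passed or had an unadjusted p under 0.05. The 344 clonotypes found in all 10 mice held 2.45% ± 0.245 of reads in R mice and 2.42% ± 0.225 in NR mice. Of them 116 used TRBV1 and 68 TRBV3, 124 used TRBJ2-7, and none had an unadjusted p under 0.05 in edgeR (180 higher and 164 lower in R).

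Clonotypes found in 4 to 6 of the 10 mice were tested by presence alone. Of 11641, Fisher's exact test called 0 after adjustment (0%), with 182 at an unadjusted p under 0.05 (1.56%). Present in all 6 R mice and in no NR mouse were 5, or 0.239% of the 2091 clonotypes found in 6 mice. Present in all 4 NR mice and in no R mouse were 25, or 0.403% of the 6205 found in 4 mice. Both patterns have the smallest p the design allows (Fisher's exact test, 0.00476, adjusted 1.00). If every mouse were equally likely to hold a clonotype, that p would also be the fraction of each set with the pattern. Both observed shares lie below this fraction. The 5 of R mice are given first and then 4 of the 5 most read of the 25, each in its most read form.
TRBV29 TRBJ2-1 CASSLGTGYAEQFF: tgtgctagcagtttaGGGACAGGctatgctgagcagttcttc
TRBV24 TRBJ2-7 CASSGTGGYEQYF: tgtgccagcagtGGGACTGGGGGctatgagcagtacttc
TRBV24 TRBJ2-1 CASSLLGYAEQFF: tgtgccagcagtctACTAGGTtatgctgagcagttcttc
TRBV3 TRBJ2-5 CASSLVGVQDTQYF: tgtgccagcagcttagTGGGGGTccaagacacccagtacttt
TRBV3 TRBJ2-1 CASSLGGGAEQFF: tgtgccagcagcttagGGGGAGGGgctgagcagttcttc
TRBV26 TRBJ1-1 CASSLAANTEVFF: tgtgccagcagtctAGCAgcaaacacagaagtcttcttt
TRBV5 TRBJ2-7 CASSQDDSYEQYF: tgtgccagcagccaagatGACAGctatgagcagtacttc
TRBV26 TRBJ2-7 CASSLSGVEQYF: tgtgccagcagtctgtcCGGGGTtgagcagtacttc
TRBV4 TRBJ2-7 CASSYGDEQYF: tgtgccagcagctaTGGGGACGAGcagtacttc

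TRBV29 TRBJ2-1 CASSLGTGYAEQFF had 122, 55, 40, 226, 100 and 59 reads in R mice and 0 in each NR mouse. Against a limit of 3 reads per NR library its mean was at least 29.1-fold higher in these R mice (edgeR adjusted p 1.00, DESeq2 0.00217). Such limits cover the error of counting and not the spread between mice. The receptors were chosen for having no read in 1 group. The folds here and in the next paragraph, and the adjusted p given here, therefore restate that choice and are no separate support. TRBV29 TRBJ2-1 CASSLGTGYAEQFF was encoded by 6 nucleotide forms, and the most read form was found in 2 mice. TRBV24 TRBJ2-7 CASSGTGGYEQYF had 34 to 114 reads in R mice, at least 18.9-fold higher by the same limit. TRBV24 TRBJ2-1 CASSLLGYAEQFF had 44 to 83 reads in 5 R mice and 1 in R mouse 3. TRBV3 TRBJ2-5 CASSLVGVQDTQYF and TRBV3 TRBJ2-1 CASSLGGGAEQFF had 6 to 31 and 8 to 22 reads.

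Of the receptors of NR mice, TRBV26 TRBJ1-1 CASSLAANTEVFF had 0 reads in each R mouse and 67, 85, 67 and 142 in NR mice, at least 35.4-fold lower in R. TRBV5 TRBJ2-7 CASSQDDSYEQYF had 45 to 90 reads in NR mice, TRBV26 TRBJ2-7 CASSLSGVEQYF 54 to 82 and TRBV4 TRBJ2-7 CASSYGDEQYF 35 to 65. A TRBV2 TRBJ2-5 receptor of 15 residues had 39 to 70. Neither list was kept to its group once other mice were read. The 5 clonotypes of R mice were found on average in 50.0% of PLX+PTX mice, 10% of PTX mice and 36.0% of WTNT mice at d105. The 25 of NR mice were found on average in 25.3, 12 and 22.4% of those mice. TRBV24 TRBJ2-7 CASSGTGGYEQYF, for example, was present in 3 of 6 PLX+PTX and 4 of 5 WTNT mice, and TRBV5 TRBJ2-7 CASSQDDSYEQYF in 4 of 6 and 2 of 5.

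Read numbers of clonotypes found in at least 5 of the 10 mice varied widely between mice. The median standard error was 2.12 on the log2 scale. Of 8402 clonotypes edgeR called 0 (0%), with 163 at an unadjusted p under 0.05 (1.94%), 136 higher and 27 lower in R, and limma called 0. Clonotypes absent from all 4 NR mice could enter these tests, whereas those absent from all 6 R mice could not, being in too few mice. Counts by direction, here and for DESeq2 below, therefore depend on this filter and show no lean towards R. In simulated counts with these means this edgeR test recovered no planted change, so its count of 0 does not show that clonotypes were alike. In counts simulated separately, with 200 clonotypes changed 10-fold, 14 of DESeq2's calls were true and 19 were false. DESeq2 called 26 of the 8316 it could test (0.313%), 23 higher and 3 lower in R, with 223 at an unadjusted p under 0.05. All 26 had at most 3 reads in the whole of 1 group, 19 of them 0, and their edgeR adjusted p ran from 0.769 to 1.00. The smallest edgeR p belonged to the first of the following receptors, shown with 2 that DESeq2 called higher and 1 that it called lower in R.
TRBV24 TRBJ2-4 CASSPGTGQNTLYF: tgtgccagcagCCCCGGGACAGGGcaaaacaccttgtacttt
TRBV29 TRBJ2-7 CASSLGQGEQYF: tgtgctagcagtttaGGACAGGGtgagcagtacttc
TRBV2 TRBJ1-2 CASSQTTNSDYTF: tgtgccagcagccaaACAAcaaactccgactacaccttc
TRBV3 TRBJ2-7 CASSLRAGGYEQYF: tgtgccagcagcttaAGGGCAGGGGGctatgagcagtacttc

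TRBV24 TRBJ2-4 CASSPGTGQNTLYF had 63, 40, 0, 85, 914 and 1 reads in R mice and 0 in each NR mouse (edgeR adjusted p 0.0633). R mouse 5 held most of them, and the receptor was also found in 4 of 5 WTNT mice. This receptor reached the 5 mice needed for the test through R mice alone, so its p-values in part restate that filter. It was called by edgeR without R mouse 4 (adjusted p 0.0459) and without R mouse 6 (0.0143). Without R mouse 5 the adjusted p was 1.00, without NR mouse 1 it was 0.627, and without 1 of the other libraries it was 0.0624 to 0.208. TRBV29 TRBJ2-7 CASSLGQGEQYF had 550, 59, 289, 128, 0 and 1 reads in R mice, against 0, 1, 0 and 0 in NR mice (DESeq2 adjusted p 0.00483). TRBV2 TRBJ1-2 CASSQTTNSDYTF had 39, 184, 0, 306, 217 and 98 reads in R mice, against 0, 0, 1 and 0 in NR mice (DESeq2 adjusted p 0.00391). In both, 1 R mouse had no read of the receptor while others held many. TRBV3 TRBJ2-7 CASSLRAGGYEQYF ran the other way, with 1 read in R mouse 3 and 0 in the other R mice, against 47, 57, 69 and 57 in NR mice (DESeq2 adjusted p 0.0154).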

How the data were processed

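TRB rearrangements were sequenced from lymph node genomic DNA. The deposited tables hold 1 row per nucleotide clonotype with raw read counts per the file headers. The normalised clone counts are scores made by the authors, who multiplied the counts by 1 factor per V-J pair and rounded them. Which aligner, caller and build were used, and how the factor was derived, is not given in the sources used here. Members, lists and tests were chosen with earlier results of these data known. Junction measures, the SD of CDR3 length and pairing against segments were added after the tables had been seen, as were the settings with common V-J shares and without the segments of the FVB/N deletion.

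V-J pairs and V-J-length classes (at least 100 reads in at least 4 libraries) and clonotypes found in at least 5 of the 10 mice were tested on read counts with the quasi-likelihood test of edgeR 4.0.16 (R 4.3.3). DESeq2 1.42.0 and limma 3.58.1 were alternatives. Fits of V-J pairs, pairs against segments, classes and residues by position used all 23 libraries of d105, and those of clonotypes the 10 mice. Residues by position were tested with limma on log2 of the percent plus 0.1, for residues averaging at least 1%. Measures with 1 value per mouse, weighted by normalised clone count, used 2-sided exact permutation tests over all regroupings (Python 3.11.15). Presence used Fisher's exact test (scipy 1.17.1). P-values were adjusted by Benjamini-Hochberg over each family, with a threshold of 0.05. Intervals of shares are 95% Wilson intervals, and the limit for 0 reads is 3 reads per library. Named are the 5 smallest p in each direction where fewer passed, the receptors present in all mice of 1 group and none of the other (up to 5 each), the largest clonotype of each mouse and, in full or as a range of p, the measures of 1 value per mouse. Some named receptors, mainly those of 15 residues or more, are counted but not spelled out. The 5 most read of the receptors in all 10 mice, and those printed as sequences, were chosen after their values were seen. The fits were tested on simulated data.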

Additional observations from a re-analysis of the deposited data

Results flagged for a closer look

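In 7 of 206 groups of mice (3.40%) the highest or lowest mouse stood far from the others of its group by Dixon's criterion, where chance gives about 1 in 20. Of the V-J pairs, TRBV19 TRBJ2-1 held 0.995% of reads in R mouse 6, beside 0.663 to 0.785% in the other R mice. TRBV19 TRBJ1-3 with 15 residues held 0.0850% in NR mouse 2, beside 0.0608 to 0.0642% in the other NR mice.

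Against the product of their segments, TRBV29 TRBJ2-1 stood at a log2 ratio of 0.44 in R mouse 6, beside 0.23 to 0.27 in the other R mice. TRBV24 TRBJ2-5 stood at 0.42 in R mouse 1, beside 0.31 to 0.34, and TRBV24 TRBJ2-1 at -0.35 in NR mouse 1, beside -0.12 to -0.09 in the other NR mice. The SD of CDR3 length was 1.42 residues in NR mouse 4, where the other NR mice had 1.400 to 1.403. Clonotypes of 0.001 to 0.01% held 68.2% of normalised counts in R mouse 2, beside 73.2 to 75.1% in the other R mice.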

How the results depend on the processing

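No paired analysis was possible because the mice were numbered by accession within each group, so equal numbers link no R mouse to an NR mouse. Leaving out 1 library at a time gave 0 to 5 called V-J pairs, 0 to 3 called residues by position, 0 to 1 called shared clonotypes and 0 to 2 loop properties past the threshold, against 0 with all libraries. DESeq2 called 1 V-J-length class and 26 shared clonotypes, and 2 loop properties passed among clonotypes with at least 10 reads. The difference in mean CDR3 length was 0.0101 to 0.0256 residues without 1 library and -0.00665 at common V-J shares. That in the SD of length was -0.0204 to -0.0116 without 1 library, -0.00174 with raw reads, -0.00913 with nb clone count, -0.000113 with each clonotype counted once, -0.0232 with at least 10 reads, -0.0111 at common V-J shares and -0.0158 without the 2 R mice whose description numbers lie below those of all NR mice. Of 1830 single values under alternatives, 168 had the other sign, and 11 of these also moved by over 1 SD or SE. They were a TRBV24 TRBJ1-1 clonotype with 1470 reads in NR mouse 1 (-5.05 to 0.32 without 1 library, the highest without NR mouse 1), glutamine at position 5 (-0.0100 at common V-J shares), arginine at position 8 and aspartate at position 9 (-0.0345 and 0.104 in 13-residue CDR3s), 12 residues and methionine (0.105 and 0.00857 at common V-J shares), 17 residues, glycine, TRBJ bases removed and TRBD2 with TRBJ1 (0.102, 0.113, 0.00656 and 0.278 with each clonotype counted once) and the largest clonotype (0.0824 with nb clone count). The cause was not tested. Depth limits what single clonotypes can show, as the median clonotype rests on 14 to 29 reads.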
